A study of Mus musculus with 4 samples.

Results

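High Dcx-expressing cells of the medial ganglionic eminence (MGE) that carried the LIM homeodomain gene Lhx8 are described here. A barcode of the MGE library was taken as a cell when it held more than 1500 and fewer than 4500 genes, under 5% of its UMIs in mitochondrial genes and under 1% in Hbb genes, which left 4852 of 6235 barcodes. Cells were counted as members when ln(1 + UMIs per 10000) of Dcx, a microtubule protein of young neurons, was above 1.5 and when 2 or more unique molecular identifiers (UMIs) of Lhx8 were found. There were 656 members, 13.5% [12.6–14.5] of the kept MGE cells and 28.9% [27.0–30.8] of its 2272 high-Dcx cells, out of 16544 kept cells in the whole series. They were set against 1098 comparators, high-Dcx MGE cells with 0 Lhx8 UMIs and at least 1 UMI of Lhx6, a LIM homeodomain gene of MGE-derived interneurons. Lhx8, Lhx6 and Dcx chose the cells, so their levels are descriptions.

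The series held droplet single-cell RNA libraries of the MGE, the lateral (LGE) and caudal (CGE) ganglionic eminences and the cortex (CTX) of wild-type C57BL/6 embryos at E12.5 (embryonic day). Tissue of several embryos of both sexes was pooled before dissociation, and each region gave 1 library, so no comparison below has a replicate and no test was made. By the labels live cells were sorted, whereas by the published methods the wild-type samples went unsorted, and a sort can set shares of cells. Square brackets hold exact 95% intervals for counting error only, and levels are given as counts-per-million (CPM), from the UMIs summed over the cells of a group. The members held 4819502 UMIs with a median of 6726 per cell, and the comparators 7207983 UMIs with a median of 6196. Predicted doublets, which were kept, numbered 18 of 656 members and 41 of 1098 comparators. Kept MGE barcodes also appeared among the kept barcodes of LGE in 6 cases, of CGE in 6 and of CTX in 8, with 0, 2 and 1 members among them.

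The MGE is the ventral swelling of the embryonic forebrain that is specified by the homeodomain factor Nkx2-1. Its progeny include interneurons that migrate to the cortex, pallidal projection neurons, and the cholinergic neurons of the striatum and basal forebrain. Lhx8 is needed for the cholinergic neurons and is lost from cortical interneurons, which keep Lhx6. Isl1, Gbx2, Gbx1 and Zic1 are regulators known from cholinergic neurons of the striatum, septum or basal forebrain, and Isl1 is also known from striatal projection neurons.

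The label of an MGE Lhx8 neuron was checked against its markers. Nkx2-1 was found in 587 of 656 members (89.5%) and Lhx6 in 607 (92.5%). Zic1 was found in 276 members (42.1%), and Isl1 in 29 (4.42%). The members were not all postmitotic neurons. A count of 214 members (32.6% [29.0–36.4]) passed a postmitotic gate with Nes, Hes5, Mki67, Ccnd1 and Ccnd2 below 0.5 on the same ln scale, against 422 comparators (38.4% [35.6–41.4]). Mki67 and Ccnd2, genes of dividing cells, were both above 0.5 in 104 members (15.9%) and 155 comparators (14.1%). Microglial genes, at least 3 of a list of 6 in a cell, were found in 1 member and 2 comparators, and no member held 3 genes of the endothelial, pericyte, cortical glutamatergic or Cajal-Retzius lists. Erythroid lists gave 6 members and 8 comparators.

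Cells with Lhx8 were also found outside the limit on Lhx8 and the limit on Dcx. Some genes stood at like levels on both sides of a limit and others did not. Another 201 high-Dcx cells held 1 Lhx8 UMI, and 103 members held the minimum of 2. Zic1 stood at 31.3 CPM in the former and 45.4 CPM in the latter, and Nkx2-1 at 684 and 675 CPM. Nr2f2 differed more between them, at 64 and 18 CPM, as did Epha5, at 633 and 316 CPM. Another 634 kept cells held 2 or more Lhx8 UMIs with Dcx at or below the limit, so members held 4716 of 9503 Lhx8 UMIs of the kept cells (49.6%). The 163 members with Dcx from 1.5 to 1.75 and the 144 Lhx8 cells with Dcx from 1.25 to 1.5 stood at 151 and 169 CPM of Zic1, 38.5 and 29.9 CPM of Shh, and 990 and 1120 CPM of Nkx2-1. Isl1 stood at 37.8 and 16.6 CPM in these cells, and Gbx1 gave 19 and 6 UMIs.

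Of the ventral forebrain regulators Zic1, Nkx2-1 and Lhx6, only Zic1 was past 2-fold higher in members than in comparators. Zic1 (ENSMUSG00000032368.10, chr9:91358058-91365810 on GRCm38), a zinc finger factor, stood at 175 CPM [164–188] in members and 9.71 CPM [7.57–12.3] in comparators, a ratio of 18.1 [14.1–23.4]. After every cell had been thinned to 3000 UMIs, Zic1 was found in 170 of 650 members (26.2% [22.8–29.7]) and 20 of 1070 comparators (1.87% [1.15–2.87]). Red blood cell barcodes of the same library, with over 10% of UMIs from Hbb genes and a median of 10802 UMIs, should lack the gene and showed it in 0 of 53 thinned barcodes, which allows a share of up to 6.72%. Isl1, Shh, Slc10a4, Gbx1 and Gbx2 were likewise in 0 of them, while Nkx2-1 was found in 1.89%, Pou3f2 in 3.77%, and Lhx6 and Nr2f1 in 7.55% each. The level was spread over many cells, because 161 members held 2 or more Zic1 UMIs and the 10 highest cells held 16.4% of the 845 UMIs. Nkx2-1 (chr12:56531958-56536908) stood at 893 CPM [867–920] and 575 CPM [558–593], a ratio of 1.55 [1.49–1.62], and was found in 78.6% and 61.4% of thinned members and comparators. Lhx6 did not set the groups apart in level, at 441 CPM [423–460] in members, of which it was not asked, and 444 CPM [429–460] in comparators, in which it was.

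The rarer regulators were found in few cells. Gbx1 (chr5:24502757-24527202), a homeobox gene, gave 69 UMIs in 36 members and 2 UMIs in 2 comparators, which is 14.3 and 0.278 CPM and a ratio of 51.6 [13.8–435]. Gbx2 (chr1:89927956-89931179), its paralogue, gave 26 UMIs in 11 members and 4 UMIs in 4 comparators, a ratio of 9.72 [3.37–38.3]. Most of the Gbx2 in members came from a handful of cells, as 7 cells held 2 or more UMIs. Zic4, which overlaps Zic1 on the opposite strand, gave 26 and 0 UMIs, a ratio of 13.0 with the comparators set to a floor of 3 UMIs. Zic2 and Zic5 gave 3 and 0 UMIs in members.

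Isl1 (chr13:116298281-116309689) behaved differently from Zic1, Gbx1 and Gbx2. It gave 78 UMIs in each group, 16.2 CPM [12.8–20.2] in members and 10.8 CPM [8.55–13.5] in comparators, a ratio of 1.50 [1.08–2.07]; 2-fold was the limit set here for naming a difference. It was found in 29 members and 27 comparators, or 3.23% and 1.68% of thinned cells, shares that lie under the limit the red blood cell barcodes set. The thinned shares of Gbx1 (3.08% of members, 0 comparators) and Gbx2 (1.38% and 0.0935%) lie under it too. For Isl1, the 10 highest cells held 70.5% of its UMIs in members and 76.9% in comparators. The direction of the ratio depended on which cells were compared. When at least 1 Lhx6 UMI was also asked of the members, as it was of the comparators, the log2 ratio of Isl1 was -0.12. When 2 or more Lhx6 UMIs were asked of the comparators instead, it was 1.44, past the 2-fold limit. In postmitotic cells, 9 UMIs in members (6.67 CPM) stood against 39 in comparators, a ratio of 0.417, and in the other cells 69 UMIs (19.9 CPM) stood against 39 (8.18 CPM), a ratio of 2.43. The highest Isl1 level of the high-Dcx cells was in the 317 cells with neither Lhx8 nor Lhx6, at 367 CPM, next to 604 CPM of Ebf1, a factor of striatal neurons.

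**Figure D1:**
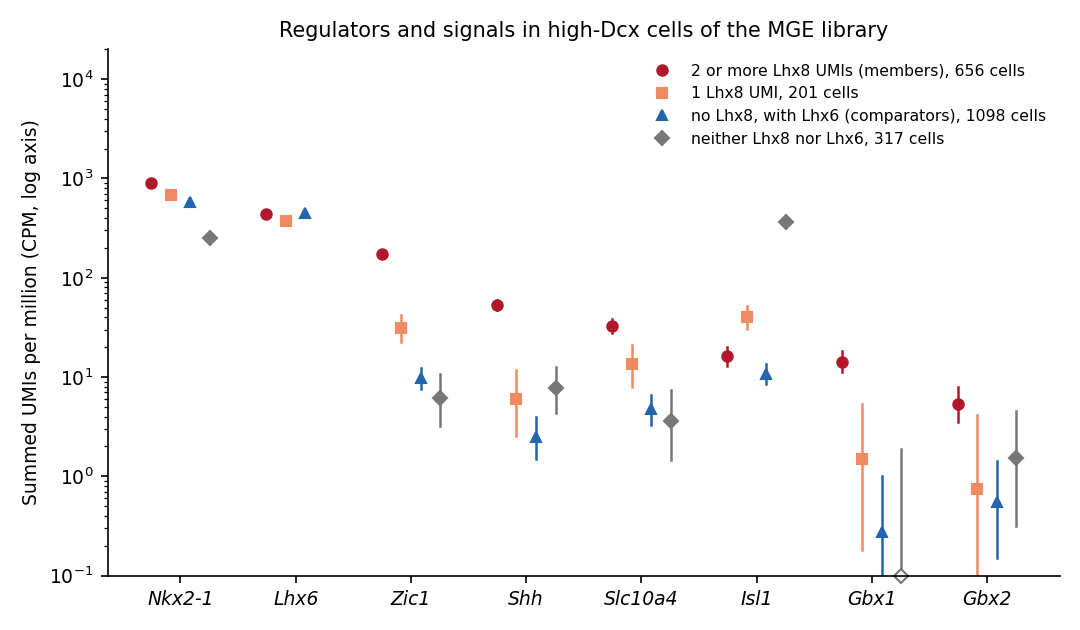
CPM of 8 genes (log axis) in high-Dcx cells of the MGE library with 2 or more Lhx8 UMIs, with 1, with none but with Lhx6, and with neither gene; bars are exact Poisson 95% intervals, an open symbol on the lower edge marks a level of 0, and Lhx6 is not drawn for cells chosen to lack it. Zic1, Shh, Slc10a4, Gbx1 and Gbx2 are highest in members, while Isl1 is highest, at 367 CPM, in cells with neither gene.

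Genes that make, load or recover acetylcholine gave few or no UMIs, while Slc10a4 and Chka were measured in both groups. Chat, which makes acetylcholine, and Slc18a3, its vesicular transporter, gave 0 UMIs in members and in comparators. A count of 0 over the members allows up to 0.765 CPM at the upper end of its interval. Slc5a7, the choline transporter, gave 2 and 5 UMIs, Ache, the esterase, 2 and 6, and Ngfr, the low-affinity neurotrophin receptor, 3 and 3. Chka, a choline kinase of phospholipid synthesis, stood at 47.7 CPM [41.8–54.3] and 46.2 CPM [41.4–51.4], a ratio of 1.03 [0.869–1.23]. Slc10a4 (chr5:73006883-73012955), a vesicular protein of cholinergic and monoaminergic neurons, gave 159 and 34 UMIs, 33.0 CPM [28.1–38.5] in members and 4.72 CPM [3.27–6.59] in comparators, a ratio of 6.99 [4.80–10.4]. Thinned to 3000 UMIs per cell, it was found in 8.46% of members, 1.40% of comparators and 0 red blood cell barcodes.

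Shh was the gene with the largest ratio among those at a mean of 20 CPM or more. The gene (chr5:28456815-28467256) encodes the secreted ligand of the hedgehog pathway, which patterns the ventral forebrain. It gave 256 UMIs in members (53.1 CPM [46.8–60.0]) and 18 in comparators (2.50 CPM [1.48–3.95]), a ratio of 21.3 [13.2–36.5]. Thinned to 3000 UMIs, 76 of 650 members (11.7%) and 7 of 1070 comparators (0.654%) held a UMI. Its receptor Ptch1 stood at 14.7 and 14.6 CPM, the signal transducer Smo at 30.3 and 26.1 CPM, and Gli1, a target of the pathway, gave 0 and 1 UMIs.

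Over all genes, the summed profiles of members and comparators were close. At a mean of 20 CPM or more, 6424 genes were compared, of which 20 (0.311%) were at least 2-fold higher in members and 27 (0.420%) at least 2-fold lower, with a median log2 ratio of -0.0043. After Shh and Zic1, the highest ratio was that of Dcc. Dcc, a netrin receptor, stood at 36.7 and 7.35 CPM, a ratio of 5.00 [3.66–6.92]. Pou3f2, a POU-domain factor of neural precursors and young neurons, stood at 300 CPM in members and 83.2 CPM in comparators, a ratio of 3.60 [3.27–3.96], and was found in 51.2% and 18.3% of thinned cells. Ratios between 2 and 4 were also found for Dmrtb1 (3.83), the noncoding RNA Rmst (3.53), the sulfatase Sulf2 (3.27), the calcium channel subunit Cacna2d2 (3.16), Dcbld1 (2.97), the kinase Sgk1 (2.68), the adhesion protein Clmp (2.62), the G-protein regulator Rgs17 (2.45), the Kit ligand Kitl (2.37), Asb4 (2.36) and the repulsive guidance molecule Rgma (2.27).

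The lowest ratio at a mean of 20 CPM or more was that of the nuclear receptor gene Nr2f2. Nr2f2 (chr7:70351944-70366735), known as COUP-TFII and a factor of the caudal eminence, gave 42 UMIs in members and 1008 in comparators, 8.71 and 140 CPM, a ratio of 0.0623 [0.0446–0.0848]. Its relative Nr2f1 (chr13:78188973-78199757) stood at 71.2 and 539 CPM, a ratio of 0.132 [0.118–0.147], and was found in 11.8% of thinned members and 56.5% of thinned comparators. A830082K12Rik, which overlaps Nr2f1 on the opposite strand, had a ratio of 0.120. Epha5 (chr5:84054761-84417382), an ephrin receptor, stood at 179 CPM [167–191] in members and 776 CPM [756–796] in comparators, a ratio of 0.231 [0.214–0.248]. The neuropeptide gene Sst (0.183), the calcium-binding protein gene Calb1 (0.184), the transcription factor gene Mef2c (0.178), Efcab6 (0.131) and Lgi1 (0.212) had similar ratios. Klhl32, Neb, Epha3, Dlgap1, Olfm1 and Pam stood between 0.340 and 0.427.

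**Figure D2:**
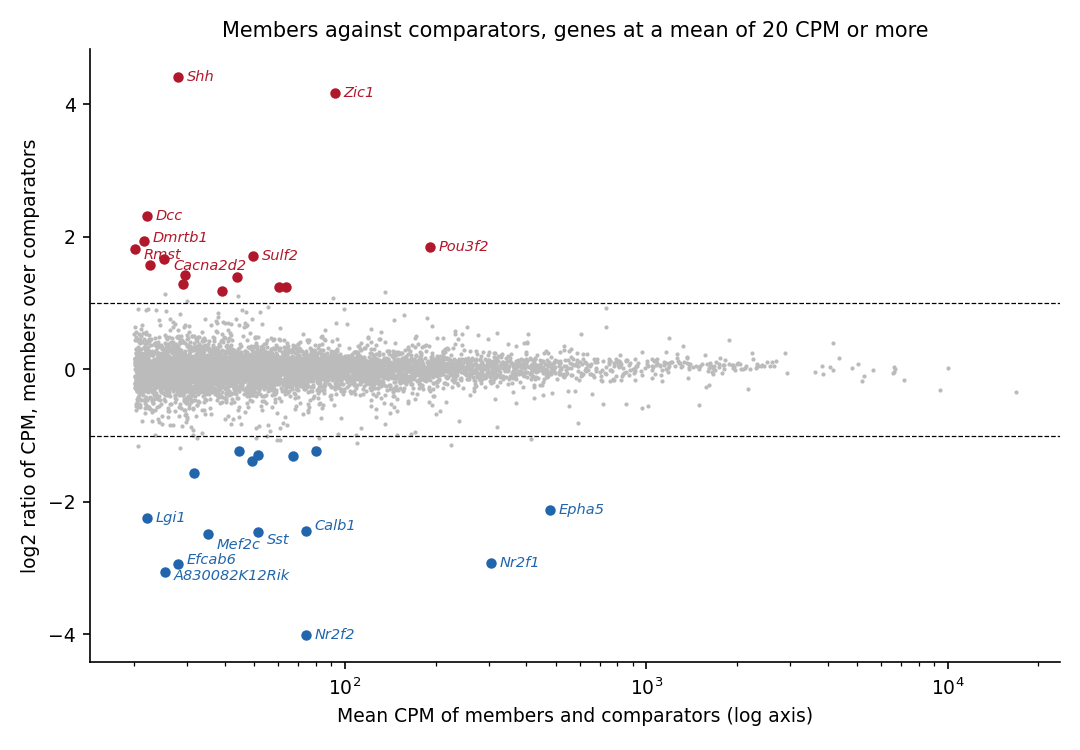
Mean CPM of members and comparators (log axis) against the log2 ratio of members over comparators, 1 point per gene at a mean of 20 CPM or more without Lhx8, Lhx6 and Dcx; dashed lines mark 2-fold, coloured points are the 15 highest and 15 lowest ratios, and genes past 3-fold are named. Shh and Zic1 stand apart at the top and Nr2f2 at the bottom, with most genes near 0.

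The sequence before the start of 2 of these genes is shown because both were lower in members and stood among the regulators and receptors with the lowest ratios. The windows are the 250 bases upstream of the RefSeq transcript start on GRCm38.p6, minus strand, at chr7:70366747-70366996 for Nr2f2 and chr5:84417383-84417632 for Epha5. Capitals mark TAATTA, a core bound by homeodomain proteins, and CAAGTG or its reverse complement CACTTG, a core bound by the Nkx2 family, searched on both strands.
Nr2f2: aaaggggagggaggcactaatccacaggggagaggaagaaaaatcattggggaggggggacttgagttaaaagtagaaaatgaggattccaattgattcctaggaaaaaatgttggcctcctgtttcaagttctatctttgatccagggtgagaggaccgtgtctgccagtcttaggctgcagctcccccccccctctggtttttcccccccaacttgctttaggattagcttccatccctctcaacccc
Epha5: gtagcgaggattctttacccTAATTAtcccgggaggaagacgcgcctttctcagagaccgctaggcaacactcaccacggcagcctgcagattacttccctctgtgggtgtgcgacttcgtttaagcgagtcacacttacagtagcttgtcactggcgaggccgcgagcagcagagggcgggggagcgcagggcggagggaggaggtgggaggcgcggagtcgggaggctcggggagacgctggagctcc
TAATTA was found in the Epha5 window, 230 bases before the start, and neither core was found in the Nr2f2 window. Of 12 genes sought (Lhx8, Zic1, Gbx1, Gbx2, Shh, Isl1, Lhx6, Nkx2-1, Nr2f1, Nr2f2, Epha5 and Pou3f2), 10 had a window in the table, and the other 9 of them held neither core. TAATTA stood in 4.84% and CAAGTG in 11.6% of 32851 windows of the same length. These matches are letters in a window and no measure of binding.

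Lists of genes with a known role were read against a background of 9767 genes at a mean of 5 CPM or more, of which 78 (0.799%) were at least 2-fold higher and 79 (0.809%) at least 2-fold lower in members. The lists were drawn up with earlier results of these data known. Of the 8 cholinergic regulators besides Lhx8, 3 reached that level and Gbx1 and Zic1 were past 2-fold higher. Of the 9 transmitter and trophic genes, 2 reached it and Slc10a4 was past 2-fold higher. Shh was the member past 2-fold among 4 of 12 hedgehog genes at that level. Of the cortical interneuron programme, 17 of 18 genes reached that level, 7 were past 2-fold lower (Mef2c, Npas1, Nr2f1, Nr2f2, Calb1, Sst and Npy) and none higher, with a median log2 ratio of -0.94. Npy, a neuropeptide gene, stood at 269 CPM [254–284] and 559 CPM [542–577], a ratio of 0.481. The other 10 genes at that level lay within 2-fold. They included the migration and fate factors Maf (0.522) and Zeb2 (0.572) and the neuregulin receptor Erbb4 (0.667), which were lower in members. The chemokine receptor gene Cxcr4 gave 2 UMIs in members and 45 in comparators, a ratio of 0.0665 [0.0078–0.255], and was found in 0 of the thinned members and 2.43% of the thinned comparators.

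Other genes of the MGE lineage stood at like levels in both groups. In the list of MGE identity and GABAergic regulators, 10 genes reached 5 CPM and Sp8, a zinc finger factor, was past 2-fold, at 12.9 and 3.61 CPM. Sp9 of that list (0.948) was close to equal. So were Sox6 (0.942) and Satb1 (0.826) of the cortical interneuron programme and Etv1 (1.10) of the list of pallidal neuron genes. The GABA-synthesis genes Gad1 and Gad2 had ratios of 0.832 and 1.06, and the vesicular glutamate transporter genes Slc17a6 and Slc17a7 gave 0 UMIs in both groups. None of 6 LIM homeodomain factors and cofactors at that level was past 2-fold. Ldb1, the cofactor that LIM factors bind, stood at 95.7 and 90.5 CPM, and Lmo4, which competes for it, at 162 and 250 CPM. Of a list of 14 genes of the ventral septum, preoptic area and hypothalamus, 0 reached 5 CPM and 7 had no UMI. The list left out Zic1 and Shh, and it cannot tell whether septal or preoptic neurons were among the members.

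Of 3 neuropeptide genes at 5 CPM, Npy and Sst were lower and Tac1 higher, and 5 of the list of 10 had no UMI. Of 3 neurotrophic receptor genes, Ntrk2, the receptor for brain-derived neurotrophic factor, was lower at 21.2 and 43.3 CPM.

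The lists of striatal projection neuron and axon guidance genes held genes past 2-fold in both directions, and the list of pallidal neuron genes held 1 that was lower. Of 8 striatal genes at 5 CPM, Ebf1 (6.43 and 20.4 CPM) and Zfp503 (1.87 and 8.88 CPM) were past 2-fold lower, and Tac1, which encodes substance P, was past 2-fold higher at 7.47 and 3.61 CPM. Tac1 rested on few cells, as 15 of its 36 UMIs in members came from 1 cell. Ebf1 and Zfp503 also rested on few cells in the comparators. Among comparators with Isl1, 7 cells held 124 Ebf1 UMIs and 10 cells held 59 Zfp503 UMIs, most of the comparators' UMIs of each gene. Of 7 pallidal genes, Npas1 was past 2-fold, with 8 UMIs in members and 71 in comparators. Of 20 guidance genes, 5 were past 2-fold, of which the ephrin Efnb3 (2.11) and Dcc were higher and Epha3, Epha5 and Cntn2 (0.484) lower. Of 11 maturation genes, Ina, a neurofilament protein gene, and Rbfox3 were lower, with ratios of 0.452 and 0.461. The 14 cell cycle and progenitor genes at that level all lay within 2-fold, with Mki67 at 177 and 172 CPM.

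The levels were next read along the number of Lhx8 UMIs, which split the high-Dcx cells more finely than the gate. Lhx8 UMIs also chose the cells, and most of these genes were named from that contrast. The order therefore describes the same contrast again and is no further support for it. Zic1 stood at 45.4 CPM in cells with 2 Lhx8 UMIs, 57.8 CPM with 3, 108 CPM with 4 to 6, 241 CPM with 7 to 10 and 307 CPM with 11 or more. Shh stood at 5.96 CPM with 1, 2.75 CPM with 2 and 105 CPM with 11 or more Lhx8 UMIs. Nkx2-1 stood at 675 CPM with 2 and 1052 CPM with 11 or more. Isl1 and Gbx2 did not follow this order. Isl1 stood at 40.2 CPM [30.2–52.5] in cells with 1 Lhx8 UMI, 24.8 CPM with 2, 5.42 CPM with 3, 25.3 CPM with 4 to 6, 12.1 CPM with 7 to 10 and 11.7 CPM [6.21–19.9] with 11 or more. Gbx2 gave 10 UMIs in cells with 4 to 6, 12 in those with 7 to 10 and 1 in those with 11 or more (0.897 CPM). Nr2f1 and Epha5, lower in members, went the other way from Zic1. Nr2f1 stood at 273 CPM in cells with 1 Lhx8 UMI, 157 CPM with 2, 72.2 CPM with 3, 85.9 CPM with 4 to 6, 53.9 CPM with 7 to 10 and 20.6 CPM with 11 or more. Epha5 stood at 633 CPM with 1, 316 CPM with 2 and 80.7 CPM with 11 or more, and Npy, with 469 CPM at 3 Lhx8 UMIs, did not follow the order at every step. Lhx6 stayed between 372 and 495 CPM. Median depth was 6391 UMIs in cells with 2 Lhx8 UMIs and 7311 in those with 11 or more, and the part of depth in this order was not tested.

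**Figure D3:**
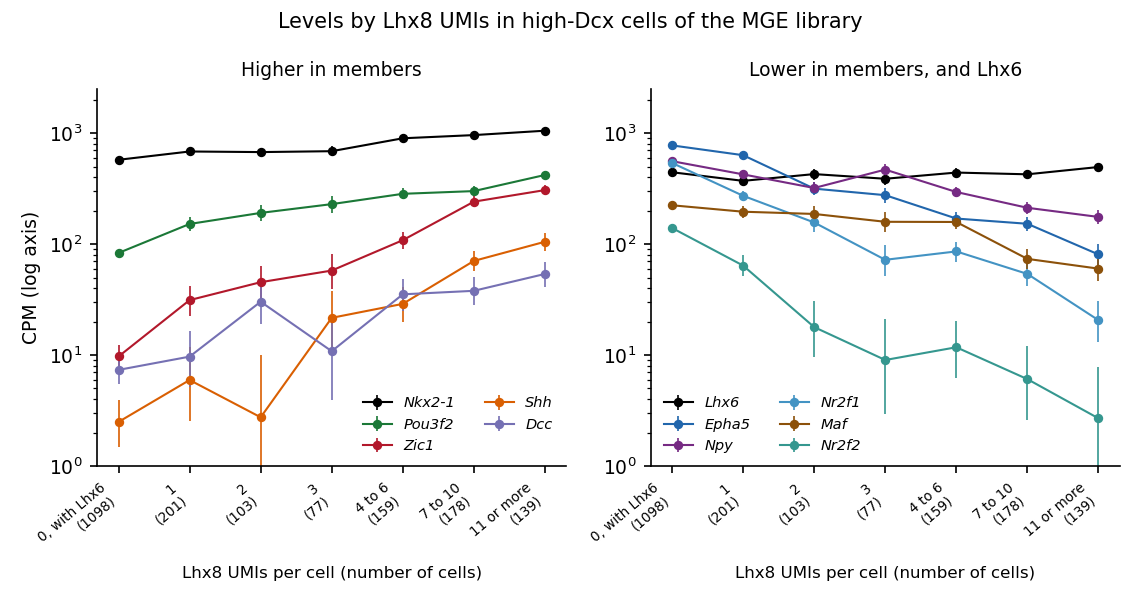
CPM (log axis) of genes higher in members (left) and of Lhx6 and genes lower in members (right) in high-Dcx MGE cells grouped by Lhx8 UMIs per cell, with the number of cells in brackets; bars are exact Poisson 95% intervals. The first group held no Lhx8 UMI and was asked for at least 1 Lhx6 UMI, which the other groups were not. Zic1 stands at 9.71 CPM in the first group and 307 CPM in the last, and Nr2f1 at 539 and 20.6 CPM.

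Because members and comparators held cycling and postmitotic cells, levels of named genes were compared again within postmitotic cells and within all other cells. Among 214 postmitotic members and 422 postmitotic comparators, 47 of 6312 genes (0.745%) were at least 2-fold higher and 68 (1.08%) at least 2-fold lower in members. Zic1 stood at 242 and 9.85 CPM there, a ratio of 24.5, and at 150 and 9.64 CPM in the cells that were not postmitotic, a ratio of 15.5. Pou3f2 had a ratio of 6.62 in postmitotic and 2.83 in other cells, and Slc10a4 one of 8.07 and 6.66. Gbx1 gave 48 UMIs in postmitotic members and 0 in postmitotic comparators, a ratio of 28.9 with the latter set to the floor of 3 UMIs, while it gave 21 and 2 in the other cells. Nr2f2 (0.0291 and 0.0779), Nr2f1 (0.0919 and 0.154) and Epha5 (0.224 and 0.254) were lower in both. Zeb2 had a ratio of 0.416 in postmitotic and 0.662 in other cells. Sst gave 77 UMIs in postmitotic members and 0 in the others, against 368 and 261 in comparators.

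**Figure D4:**
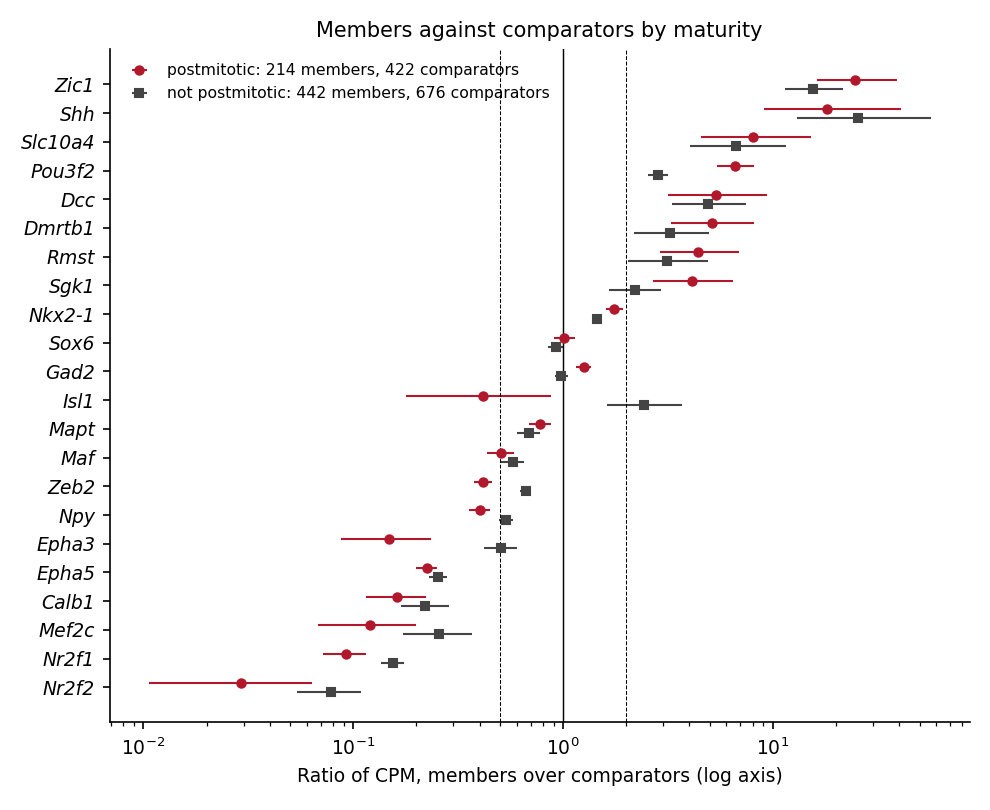
Ratio of CPM, members over comparators (log axis), in cells that passed the postmitotic gate and in those that did not; bars are exact 95% intervals and dashed lines mark 2-fold. Isl1 lies on opposite sides of 1 in the 2 classes, while the other genes past 2-fold in either class keep their side.

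The cholinergic regulators were then looked for in the same cells. Of the 3 regulators Isl1, Gbx2 and Zic1, 355 members held none, 286 held 1, 15 held 2 and 0 held all 3, against 1016, 81, 1 and 0 comparators. Thinned to 3000 UMIs, 5 of 650 members held 2 of the 3. Isl1 was found in 11 of 276 members with Zic1 (3.99%) and in 18 of 380 without (4.74%). Gbx2 was found in 3 members with Zic1 and 8 without, and in 1 member with Isl1. Gbx1 was found in 25 of 276 members with Zic1 (9.06%) and 11 of 380 without (2.89%).

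Members with and without Zic1 were then compared, for genes picked after their values were seen. Between the 276 with Zic1 and the 380 without, which had median depths of 6850 and 6686 UMIs, Lhx8 stood at 1212 and 801 CPM, Shh at 83.7 and 29.9 CPM, and Slc10a4 at 57.7 and 14.2 CPM, a ratio of 4.05 [2.80–5.97] for the last. Dmrtb1 (3.18), Rmst (3.31) and Kitl (2.10) were higher with Zic1, and Npy (0.492), Maf (0.565) and Epha5 (0.559) lower. Isl1 stood at 9.13 CPM with Zic1 and 21.5 CPM without. Members with Slc10a4, 99 cells, held Zic1 in 69 (69.7% [59.7–78.5]) against 207 of 557 (37.2%), and Gbx1 in 15 against 21. Those with Shh, 114 cells, held Zic1 in 77 (67.5%) against 199 of 542 without Shh (36.7%). They held 20 of the 26 Gbx2 UMIs, a Gbx2 ratio of 15.6 [6.04–47.4] over members without Shh. This ratio rested on few cells, as Gbx2 was found in 7 members with Shh and 4 without. Mki67 stood at 90.7 CPM with Shh and 195 CPM without.

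The 49 members without Lhx6 differed from the 607 with it at nearly the same median depth, 6606 and 6773 UMIs. They had less Zic1, at 102 and 180 CPM, and less Shh, with 5 UMIs against 251 in the larger group, a ratio of 3.48 [1.47–10.8] for cells with over cells without Lhx6. They had more Isl1, with 33 UMIs (106 CPM) against 45 UMIs (9.98 CPM), more Gbx1 (38.4 and 12.7 CPM), more of the axonal protein gene Mapt (391 and 143 CPM) and more of the homeobox gene Meis2 (122 and 48.8 CPM). The 33 Isl1 UMIs came from 7 cells. Nkx2-1 was at 871 CPM without and 895 CPM with Lhx6, a ratio of 1.03 [0.908–1.17]. In postmitotic members alone, 20 without and 194 with Lhx6, the Isl1 ratio of cells with over cells without Lhx6 was 0.198, and that of Nkx2-1 was 1.89.

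Some members with Isl1 held genes of striatal projection neurons, Ebf1 in 6 of the 29 and Zfp503 in 3. Ebf1 gave 26 UMIs in the 29 members with Isl1 and 5 in the 627 without, 106 and 1.09 CPM, a ratio of 97.1 [36.7–324]. These UMIs came from 6 cells with Isl1, none of them a predicted doublet, with depths from 7678 to 13090 UMIs. Meis2 stood at 274 and 41.8 CPM, and Zfp503 gave 9 UMIs in members with Isl1 and 0 in the others. Levels were higher in the 27 comparators with Isl1, at 608 CPM of Ebf1, in 7 cells, 554 CPM of Meis2 and 289 CPM of Zfp503. Between members with and without Isl1, Nkx2-1 stood at 996 and 888 CPM, Lhx8 at 890 and 983 CPM and Zic1 at 172 and 176 CPM. Lhx6 was lower with Isl1, at 220 and 453 CPM. Median depth was 7998 UMIs in members with Isl1 and 6691 in those without, and no member with Isl1 was a predicted doublet.

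**Figure D5:**
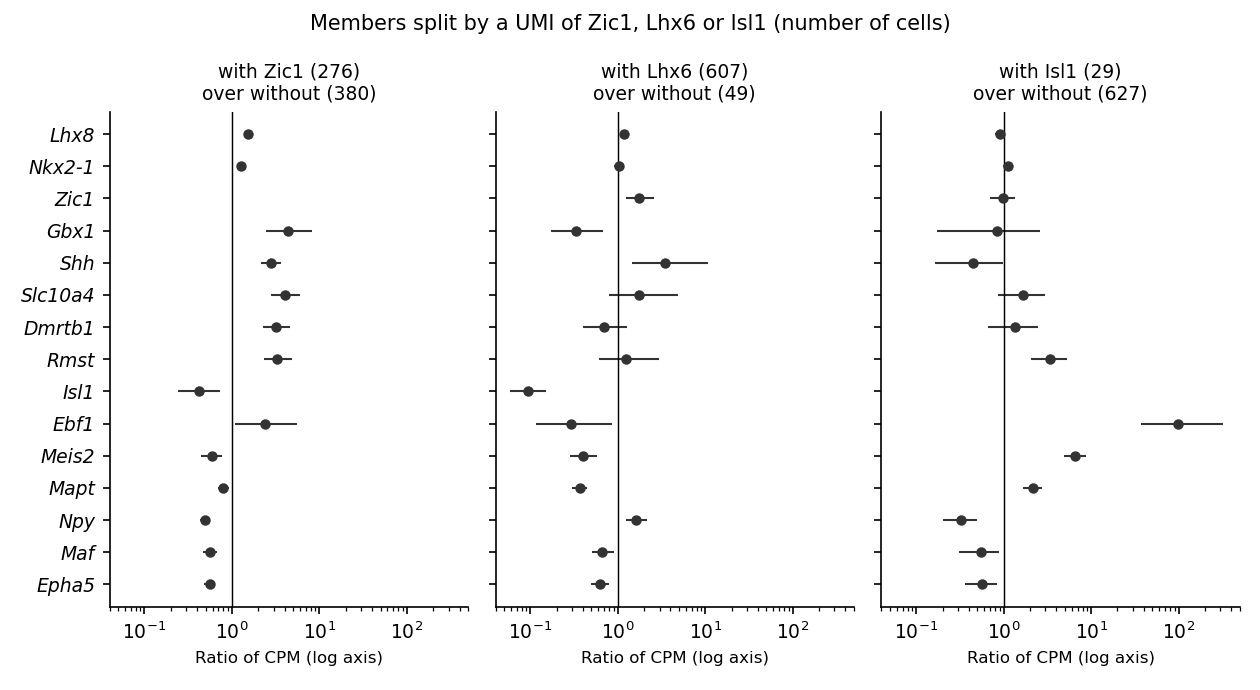
Ratio of CPM (log axis) of members with over members without a UMI of Zic1 (left), Lhx6 (middle) or Isl1 (right), with cell numbers in the titles; bars are exact 95% intervals, and a gene that defines its own split is not drawn. Gbx1, Shh and Slc10a4 lie above 1 for Zic1, Isl1 lies at 0.0944 for Lhx6, and Ebf1 lies at 97.1 for Isl1.

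A small group of members gave no UMI of Nkx2-1, and the part of depth in this split was not tested. In these 69 cells Epha5 stood at 486 CPM against 149 CPM in the 587 members with Nkx2-1, Erbb4 at 177 and 56.3 CPM, and Maf at 251 and 104 CPM. Lhx8 was at 951 and 981 CPM and Lhx6 at 435 and 442 CPM. Zic1 was lower, at 83.7 and 184 CPM, and so was Mki67, at 41.9 and 190 CPM.

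Lhx8 cells at or below the Dcx limit held more cycling cells than the members. Of these 634 cells, 348 (54.9%) passed the gate of Mki67 and Ccnd2 above 0.5. So did 1006 of 1728 MGE cells (58.2%) at or below the Dcx limit with no Lhx8 UMI. In the 634 Lhx8 cells, Nkx2-1 was at 1163 CPM, Zic1 at 118 CPM and Shh at 20.1 CPM. Zic1 was in 22.7% of these Lhx8 cells at 3000 UMIs and Gbx1 in 0.951%. In high-Nestin cells of the MGE, progenitors of the ventricular zone with Nes above 1.5, the thinned shares were 3.48% for Zic1, 6.04% for Lhx8 and 69.0% for Nkx2-1, and Shh was found in 0 of 546 cells, which allows up to 0.673%. Between members that were postmitotic and those that were not, Gbx1 stood at 35.6 and 6.05 CPM, Slc10a4 at 49.7 and 26.5 CPM and Zic1 at 242 and 150 CPM.

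The same gate found few cells in the other libraries. LGE held 34 such cells among 2198 high-Dcx cells, CGE 11 among 2330 and CTX 0 among 816, which allows a share of up to 0.451%. The LGE cells were compared with 152 LGE cells of the comparator gate. Zic1 gave 26 UMIs in 4 cells against 7 UMIs, a ratio of 15.8 [6.67–43.0], and Slc10a4 6 against 3 UMIs. Nr2f1 (1 and 165 UMIs), Epha5 (405 and 2371 CPM) and Npy (240 and 1172 CPM) were lower, as in MGE. Pou3f2 and Dcc had ratios of 5.41 each. The LGE cells differed from the members in other ways. Isl1 stood at 311 CPM [243–393] in 13 of the 34 cells against 16.2 CPM in members, Meis2 at 1516 CPM, and Zfp503 at 387 CPM, while Nkx2-1 stood at 129 CPM and Shh gave 1 UMI. The levels across libraries rest on 1 library each, so region and library cannot be told apart.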

How the data were processed

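The deposited values were whole UMI counts per gene and barcode, made by the authors on mm10 with Cell Ranger, whose version is 3.0.2 in the file headers and 3.0.0 in the submitters' processing notes. No filter on genes, mitochondrial share or doublets had been applied. Its default parameters were used, which count reads on the sense strand of a gene. Features were placed by ID with GENCODE M21 on GRCm38 (42462 of 43346 matched). The members and gene lists were chosen with earlier results of these data known. Counts were summed over the cells of a group in Python 3.11.15 with scipy 1.17.1. CPM carry exact Poisson, ratios exact conditional binomial and shares Clopper-Pearson 95% intervals, all for counting error only. Each region had 1 library, so no test was made, and genes were called by a ratio of 2 or of 0.5, with groups at 0 set to 3 UMIs. Genes named were the 15 highest and 15 lowest ratios at a mean of 20 CPM or more and list genes with 10 or more UMIs, and some list genes are counted but not reported here by name. In the splits of members, genes were picked after their values were seen. Shares were taken after thinning cells to 3000 UMIs, which left out 6 members and 28 comparators. Doublets were scored by simulated pairs at 0.8% per 1000 barcodes. The calls were tested on simulated sums with counting error only and planted changes larger than 2-fold. Spread between cells and planted changes near 2-fold were not tested.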

Additional observations from a re-analysis of the deposited data

How the results depend on the processing

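Each region had 1 library, and no replicate could be left out. No paired analysis was possible because no group has replicates and no result comes from a test. Of 643 values under other settings, 534 stayed within the reported value's counting interval (numbers of genes or cells, and list medians, within 1.5 times). Another 106 moved outside it, as did 3 log2 ratios of Isl1. In all, 8 log2 values changed sign. Those of Isl1 (0.58 as reported) were -0.82 with Dcx above 2.0, -0.12 with Lhx6 also asked of members and -1.26 in postmitotic cells; with 2 or more Lhx6 UMIs in comparators it was 1.44. The other 5 sign changes, of Gad2, Mki67, Sox6 and the guidance list, were 0.13 or less in size as reported. Zic1 was at 4.62 in postmitotic cells (4.17 as reported). Among 44 single genes and 12 settings, none past 2-fold turned direction, and 25 values of 14 genes moved over 1.5 times. With Lhx8 at 1 or more UMIs these were the log2 ratios of Nr2f2 (to -2.75), A830082K12Rik (to -2.47) and Efcab6 (-2.94 to -2.08). At that setting they were also those of Nr2f1 (to -2.23), Sst (-2.45 to -1.47) and Epha5 (to -1.48). In postmitotic cells they included Nr2f2 (-5.11), Sst (-1.40), Epha3 (-1.30 to -2.76), Lgi1 (to -3.20) and Pou3f2 (to 2.73). The 20 higher and 27 lower genes became 47 and 68 in postmitotic cells and 375 and 487 with no filter on low genes. They became 6 and 17 at a mean of 50 CPM, and 15 were lower with Lhx8 at 1 or more UMIs. Members numbered 320 with Dcx above 2.0, 214 in postmitotic cells and 330 with the gate on thinned counts. Their share of high-Dcx cells was 37.7% and 24.3% with at least 1 and at least 3 Lhx8 UMIs. It was 30.9% and 24.5% with Dcx above 1.0 and 2.0, 26.7% with Lhx6, 25.2% in postmitotic cells and 20.3% on thinned counts. At a mean of 20 CPM, list medians (log2) were 0.047 for transmitter, 2.31 for hedgehog and -1.75 for neuropeptide genes. On thinned counts, Zic1 was in 14.3% and Gbx2 in 0% of Isl1 members, and Isl1 in 1.77% of Zic1 members. In postmitotic members, the ratio with over without Lhx6 was 1.89 for Nkx2-1 and 0.198 for Isl1. With Lhx8 at 1 or more UMIs, LGE held 102 and CGE 19 cells, and the LGE ratio of Nkx2-1 was 1.78. The causes were not tested. Genes under 10 UMIs are limited by depth.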
